A study of Mus musculus with 16 samples.

Results

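Liver RNA of mice with a conditional knockout of Atg7 (Atg7 cKO) was compared with wild-type liver RNA on 4 of the 16 arrays of the series, chosen because their titles pair these genotypes. Each array was an Agilent mouse whole-genome array read in 2 colours, with RNA of one genotype labelled with Cy3 and of the other with Cy5. The 4 arrays were experiments 2 and 5, each hybridised a second time with the dyes exchanged. The knockout mice are labelled Atg7F/F:Mx1-Cre, in which Cre recombinase under the pIpC-inducible Mx1 promoter removes the floxed Atg7 alleles, and the controls are labelled wild type. All mice of the comparison received pIpC at 8 weeks of age and their livers were taken 4 weeks later, though another label speaks of a treatment that lasted 4 weeks. Both groups thus carry the exposure to pIpC, a double-stranded RNA that itself induces interferons. The Mx1 promoter responds to interferon in many cell types, so deletion is not limited to hepatocytes, and the floxed alleles and the transgene are not given for the controls. The labels give no strain, sex or animal number, so the n of 2 counts experiments, and p-values measure the spread between them. That spread may in part be technical. It also includes any difference between experiments 1 to 3 and 4 to 6, sets told apart by sex-linked transcripts. Nrf2-null mice (Nrf2-/-) against wild type, in experiments 1 and 4, and a double knockout (Atg7F/F:Mx1-Cre:Nrf2-/-) against wild type, in experiments 3 and 6, share the estimate of spread and are set beside Atg7 cKO below. Experiments 7 and 8 put the double knockout and Atg7 cKO on the same arrays.

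Atg7 is the E1-like enzyme that activates Atg12 and the LC3 family, and without it the autophagosome membrane does not take up lipid-linked LC3. Liver autophagy degrades organelles, glycogen, lipid droplets and the receptor protein p62 (Sqstm1), which binds Keap1, the inhibitor of the transcription factor Nrf2. Nrf2 with a small Maf partner binds antioxidant response elements, interferon-activated complexes bind interferon-stimulated response elements, and genes of mitosis are commonly controlled through CCAAT boxes and the cell cycle homology region.

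Promoters of genes that rose in Atg7 cKO in these 3 classes are shown because they hold matches to motifs of the named factors. The matches are by sequence only, and binding or function at these sites was not tested. They were picked with the values known, from genes whose windows hold a match. Windows ran from 250 bases before to 50 bases after a start site, from RefSeq on build GRCm38.p6, and 10849 of the 16381 genes tested had at least 1, with 13718 windows in all. A stretch is printed 5′ to 3′ in the direction of the gene, with motif matches in capitals.

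The antioxidant response element was searched as TGACNNNGC on both strands. It was present in 14.1% of the windows of tested genes and 12.4% of all 32851 windows in the table. Among genes at least 2-fold higher in Atg7 cKO it was in 106 of 613 windows (17.3%), and among those of them that were also lower in the double knockout than in Atg7 cKO it was in 38 of 159 (23.9%). Those that did not differ from the double knockout had it in 65 of 435 windows (14.9%), and genes at least 4-fold higher in 12 of 90 (13.3%). Genes at least 2-fold lower had it in 12.3% of windows. These shares describe the windows and carry no test. Shown are Ugdh, which makes UDP-glucuronate for glucuronidation (chr5:65435903-65435992, minus strand), Txnrd1, the cytosolic thioredoxin reductase (chr10:82859076-82859165, plus strand), and Abcc4, an efflux pump of the basolateral membrane (chr14:118706220-118706309, minus strand). Matches began 132 and 94 bases before the Ugdh start site, 92 before that of Txnrd1 and 25 before that of Abcc4.
Ugdh: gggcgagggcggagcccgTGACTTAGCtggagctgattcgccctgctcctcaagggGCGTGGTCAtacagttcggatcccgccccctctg
Txnrd1: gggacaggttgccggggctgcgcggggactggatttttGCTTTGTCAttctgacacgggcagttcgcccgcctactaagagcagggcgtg
Abcc4: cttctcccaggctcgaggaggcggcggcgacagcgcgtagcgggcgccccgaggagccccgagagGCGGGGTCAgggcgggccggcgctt

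The interferon-stimulated response element was searched on both strands as GAAA, any 2 bases and GAAA again. It was in 14 of 27 windows of the type I interferon list (51.9%), against 3.23% of the windows of tested genes. Genes at least 2-fold higher had it in 5.22% of windows and those at least 2-fold lower in 3.56%. For genes at least 4-fold higher and lower the shares were 7.78% and 7.69%. No test was made of these shares. Shown are Rsad2, the antiviral enzyme viperin (chr12:26456513-26456602, minus strand), Isg15, a ubiquitin-like protein (chr4:156200839-156200928, minus strand), and Ifit1, a binder of viral RNA (chr19:34640749-34640838, plus strand). The match of Rsad2 began 120 bases before its start site and those of Ifit1 104 and 85 before its own. Isg15 held overlapping matches that began 78, 72 and 66 bases before its start site.
Rsad2: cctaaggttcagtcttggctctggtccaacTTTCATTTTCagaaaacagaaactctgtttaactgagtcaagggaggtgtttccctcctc
Isg15: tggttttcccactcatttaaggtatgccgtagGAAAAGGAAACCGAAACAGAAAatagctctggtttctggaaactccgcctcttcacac
Ifit1: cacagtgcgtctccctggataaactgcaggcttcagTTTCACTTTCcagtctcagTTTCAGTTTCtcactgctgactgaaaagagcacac

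The CCAAT box, bound by NF-Y, and the cell cycle homology region, searched as TTTGAA, were both read on both strands. A TTTGAA match can share its last letters with a match of the interferon motif. CCAAT was in 23 of 27 windows of the mitosis list (85.2%), against 37.5% of the windows of tested genes. TTTGAA was in 20 of 27 (74.1%), against 12.9%. Genes at least 2-fold higher had CCAAT in 37.5% and TTTGAA in 16.6% of windows, and those at least 2-fold lower in 42.2% and 16.4%. At 4-fold, TTTGAA was in 20% of windows of higher and 25% of windows of lower genes. Hepatocyte markers had CCAAT in 66.7%. These shares also carry no test. Shown are Cdc20, the activator of the anaphase-promoting complex (chr4:118437344-118437433, minus strand), the mitotic cyclin Ccnb2 (chr9:70421565-70421654, minus strand) and its kinase Cdk1 (chr10:69352913-69353002, minus strand). In Ccnb2 the capitals mark CCAAT boxes that began 87, 54 and 21 bases before the start site, and the other stretches hold both motifs.
Cdc20: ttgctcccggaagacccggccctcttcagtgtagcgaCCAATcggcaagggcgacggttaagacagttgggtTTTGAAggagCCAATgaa
Ccnb2: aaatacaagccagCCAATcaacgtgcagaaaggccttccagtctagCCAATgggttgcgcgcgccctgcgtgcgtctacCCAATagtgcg
Cdk1: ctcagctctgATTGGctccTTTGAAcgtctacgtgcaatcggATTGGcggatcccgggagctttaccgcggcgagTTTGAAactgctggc

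Values are log2 ratios of Atg7 cKO over wild type after normexp background correction and loess normalisation, so 1 stands for a 2-fold rise and -1 for a 2-fold fall. Where 4 values are listed they are, in order, experiment 2 forward, experiment 2 with the dyes exchanged, experiment 5 forward and experiment 5 with the dyes exchanged. A gene was called changed at a limma adjusted p under 0.05, with the spread pooled over experiments 1 to 6. The background offset of 50 pulls ratios of dim genes towards 0. The probes well above background were 52.81% to 57.19% of spots in the Atg7 cKO channels and 46.62% to 50.81% in the wild-type channels, and median signals lay between 44.44 and 55.63 against backgrounds of 35 to 36.5. Per the sex-linked transcripts, experiment 2 held RNA with Y-linked Ddx3y and no Xist above background and experiment 5 the reverse, in both genotypes. Differences between experiments 2 and 5 therefore cannot be told apart from differences between the sexes.

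The targeted gene was lower in both experiments. The Atg7 probe at mm9 chr6:114726985-114727044 gave -0.86, -0.72, -0.81 and -0.83, a mean of -0.81 ± 0.02 (SD between experiments, n = 2; adjusted p = 0.000827). Its wild-type signal was well above background on 4 of 4 arrays and its Atg7 cKO signal on 1 of 4. In the deposited processed signals, which carry no offset, the same probe gave -3.16 in experiment 2 and -3.67 in experiment 5. A second Atg7 probe gave -0.17 and 0.01 and did not check the labels. Sqstm1, the autophagy receptor p62, gave 1.81, 1.17, 1.74 and 0.88 (1.40 ± 0.13; adjusted p = 0.000755), higher with each dye order but more so in the forward orientation of both experiments. Nfe2l2, which encodes Nrf2, gave 1.29, 1.24, 1.15 and 1.11 with its brightest probe (1.2 ± 0.10; adjusted p = 0.00691). Its call was lost without experiment 5 (1.27). Another Nfe2l2 probe, at mm9 chr2:75513917-75513976, gave 1.11 in experiment 2 and 0.94 in experiment 5. The Nfe2l2 probe at chr2:75529947-75530006 gave -0.16 and 0.12 (mean -0.02) and did not show the rise. Its signal was well above background on 4 of 4 arrays in both genotypes. Keap1 gave 0.30, 0.40, -0.03 and 0.12 and was not called (adjusted p = 0.137).

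The change spread over much of the transcriptome: of 16381 genes tested, 3834 were higher in Atg7 cKO (23.4%) and 2664 lower (16.3%), 39.7% in all, and 8162 had an unadjusted p under 0.05. At least 2-fold were 651 higher (3.97%) and 383 lower (2.34%), while 3464 of the called genes had a log2 ratio of less than 0.5 in size. Deposited processed signals gave another split, 3256 higher and 3427 lower, with the median of all genes at -0.08 against 0.00 here, and 1814 higher and 1091 lower at least 2-fold. Among the largest changes, 20 genes rose and 6 fell by a log2 ratio between 3 and 4, and 7 rose and 10 fell by more than 4. Without experiment 5 the calls dropped to 2037 higher and 1133 lower, of which 3068 were calls made with it, and without experiment 2 to 2951 and 1847. With the slide as a block 5928 genes were called, 5257 of them among the calls without it. The median SD between the experiments was 0.09. Across genes, which are not independent replicates, r was 0.93 and 0.94 between the dye orders of experiments 2 and 5 and 0.85 between the experiments.

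**Figure D1:**
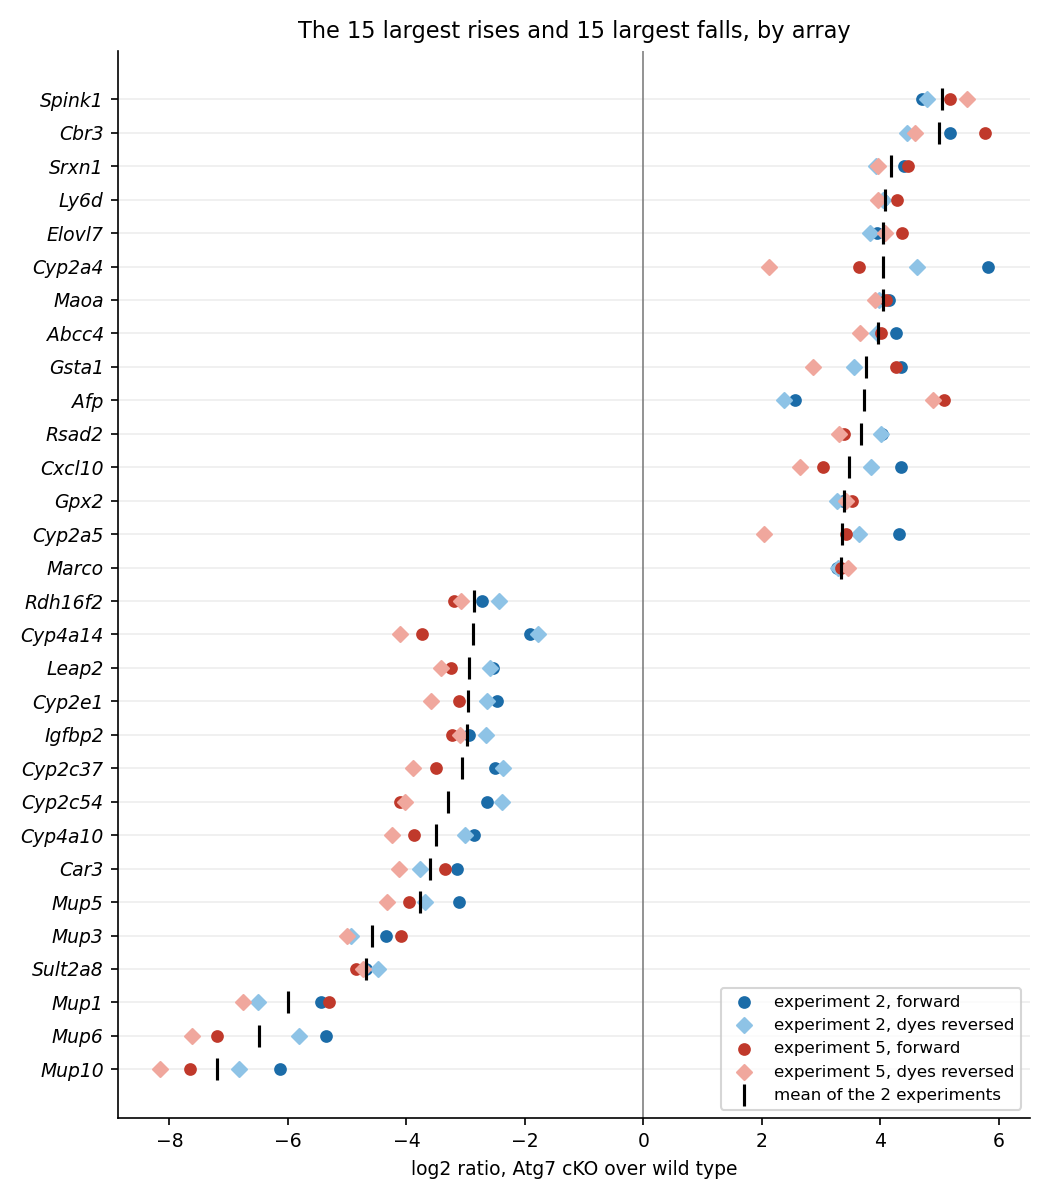
Log2 ratio of Atg7 cKO over wild type (x axis) on each of the 4 arrays for the 15 largest rises and 15 largest falls (y axis), with the mean of the 2 experiments as a bar. The array points of Marco and Maoa lie close together, while those of Cyp2a4 run from 2.12 to 5.82 and those of Mup10 from -8.16 to -6.13.

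The genes that rose most encode a protease inhibitor, reductases, enzymes of amine and lipid metabolism, an efflux pump and interferon-induced proteins. Spink1, a secreted trypsin inhibitor (probe at mm9 chr18:43887802-43887858), gave 4.70, 4.80, 5.17 and 5.47, a 32.8-fold rise (5.03 ± 0.41; adjusted p = 0.000185). Cbr3, a carbonyl reductase (chr16:93691120-93691179), gave 5.17, 4.44, 5.76 and 4.59 (4.99 ± 0.26; adjusted p = 6.21e-05). Srxn1, sulfiredoxin, which reactivates peroxiredoxins (chr2:151936919-151936978), gave 4.40, 3.92, 4.47 and 3.96 (4.18 ± 0.04; adjusted p = 3.1e-05). All 3 were far higher on every array, and the forward arrays of Cbr3 and Srxn1 read higher than the exchanged ones. Maoa, the mitochondrial amine oxidase (chrX:16262643-16262702), gave 4.15, 3.99, 4.10 and 3.92 (4.04 ± 0.04; adjusted p = 3.1e-05). Elovl7, an elongase of very long fatty acids, gave 3.95, 3.82, 4.36 and 4.07 (4.05 ± 0.24; adjusted p = 6.21e-05), and Ly6d, a lipid-anchored surface protein, 4.05, 4.05, 4.28 and 3.96 (4.08 ± 0.05; adjusted p = 6.21e-05). Gpx2, a glutathione peroxidase best known from the gut, gave 3.37, 3.27, 3.52 and 3.43 (3.40 ± 0.11; adjusted p = 4.37e-05). The last 4 of these genes varied little between the experiments.

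Other large rises were of unequal size in the 2 experiments. Afp, the fetal plasma protein alpha-fetoprotein, gave 2.57, 2.37, 5.07 and 4.89 (3.72 ± 1.77; adjusted p = 0.00683), higher in experiment 5. Cyp2a4, a steroid 15-alpha-hydroxylase, gave 5.82, 4.62, 3.64 and 2.12 (4.05 ± 1.66; adjusted p = 0.00555) and its close paralogue Cyp2a5, the coumarin hydroxylase, 4.32, 3.64, 3.42 and 2.04 (3.36 ± 0.89; adjusted p = 0.00182), both higher in experiment 2 and with the forward dye order. Probes of such near-identical paralogues, as in the Cyp2a, Mup, Gsta, Gstm, Ces, Ifit, Oas and H2 families, can share signal, so single members of these families are uncertain. Rsad2 gave 4.03, 4.00, 3.39 and 3.30 (3.68 ± 0.48; adjusted p = 0.00108) and Cxcl10, a chemokine for activated T cells, 4.35, 3.84, 3.04 and 2.64 (3.47 ± 0.89; adjusted p = 0.00242). Marco, a scavenger receptor of Kupffer cells, gave 3.26, 3.29, 3.34 and 3.46 (3.34 ± 0.09; adjusted p = 8.97e-05) and varied little between arrays.

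The genes that fell most encode secreted pheromone carriers and enzymes of mature hepatocytes. Mup10, a major urinary protein (mm9 chr4:60593589-60593648), gave -6.13, -6.83, -7.65 and -8.16, a mean of -7.19 ± 1.01 (adjusted p = 0.000887), and Mup1 gave -5.45, -6.50, -5.31 and -6.75 (-6.0 ± 0.04; adjusted p = 6.21e-05). Sult2a8, a hydroxysteroid and bile acid sulfotransferase (chr7:14996296-14996355), gave -4.68, -4.48, -4.85 and -4.74 (-4.69 ± 0.15; adjusted p = 0.00073). Car3, carbonic anhydrase 3, gave -3.15, -3.77, -3.35 and -4.12 (-3.60 ± 0.19; adjusted p = 0.0056), a call lost without experiment 5 (-3.46, adjusted p = 0.0535). Igfbp2, a binding protein of insulin-like growth factors (chr1:72898677-72898736), gave -2.95, -2.66, -3.23 and -3.09 (-2.98 ± 0.25; adjusted p = 0.00159). Leap2, a secreted hepatic peptide that blocks the ghrelin receptor, gave -2.54, -2.58, -3.25 and -3.42 (-2.95 ± 0.55; adjusted p = 0.000842), and Rdh16f2, a retinol dehydrogenase, -2.72, -2.44, -3.20 and -3.08 (-2.86 ± 0.40; adjusted p = 0.000844). Each of these was at least 4-fold lower on every array. The fatty acid hydroxylases Cyp4a10 and Cyp4a14 fell by 3.50 (adjusted p = 0.00138) and 2.88 (adjusted p = 0.0257), and the call of Cyp4a14 was lost without experiment 5 (-1.84).

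The following paragraphs describe 102 lists of 1691 distinct genes, of which 1579 were tested, 82 had a probe below the filter and 30 had no probe of that name. Counts of called members are to be read against the 23.4% of all genes that rose and the 16.3% that fell, and list medians against the median of all genes, 0.00. Medians of 57 of the 102 lists moved by more than the spread between the experiments under the processed signals, which carry no offset. Where a call is said to be lost, the value without the named experiment no longer passed the threshold, and "without either experiment" stands for experiment 2 and experiment 5 left out in turn. Experiments 1, 3, 4 and 6 enter only through the pooled spread, and with 1 of them left out the genes of this text that lost their call, with no change in their ratios, were Gsta3, Prdx2, Nampt, Hspa1b, Bub1, S100a13, S100a1, Yap1, S100a8, Hamp2, Ces1g, Ehhadh and Igfbp7. In a fit of experiments 2 and 5 alone the calls of Cyp4a14, Gstm7, Hspa1a, Ifit1, Mmp13, Nr1i3 and Plat were lost too, and with the slide as a block those of Cyp7a1 and S100a9.

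Genes of glutathione and quinone metabolism, many of them known Nrf2 targets, rose more often than they fell, and their values in the double knockout over wild type are given beside them. The 2 comparisons each have their own arrays but may share wild-type RNA. Of the mu class glutathione transferases, 5 of 7 rose and 1, Gstm7 (-0.33), fell (median 1.66, double knockout -0.57), and of the alpha class 3 of 4 rose and 1, Gsta3 (-1.03), fell (median 2.24, double knockout -1.79). Gstm1 gave 3.92, 2.43, 3.59 and 1.75 (2.92 ± 0.36; adjusted p = 0.00101), against -1.47 in the double knockout (adjusted p of the difference = 0.00609), and Gsta1 gave 4.34, 3.55, 4.26 and 2.87 (3.76 ± 0.27; adjusted p = 0.000665), against -1.84 (adjusted p of the difference = 0.00323). The falls were lost without experiment 5 and that of Gsta3 also without experiment 2. Gstm1 and Gsta1 were high on all arrays and higher where Atg7 cKO RNA was labelled with Cy5. Gclc, the catalytic subunit of the enzyme that limits glutathione synthesis, gave 2.87, 2.52, 2.68 and 2.14 (2.55 ± 0.20; adjusted p = 0.000755), against -0.59 in the double knockout (adjusted p of the difference = 0.00631). In the glutathione supply list 9 of 13 rose, while Cbs (-1.12) and Cth (-1.06) of transsulfuration, the route from methionine to cysteine, fell. Without experiment 5 the list had 5 rises and 1 fall, the call of Cth being lost (-0.77).

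Nqo1, the quinone reductase, gave 2.39, 2.32, 2.15 and 2.07 (2.23 ± 0.17; adjusted p = 0.00145), against -0.76 in the double knockout (adjusted p of the difference = 0.0113). Akr1b7, an aldose reductase-like enzyme, gave 3.27, 2.99, 3.14 and 2.73 (3.03 ± 0.14; adjusted p = 0.00259), against 2.37 (adjusted p of the difference = 0.483). Both were higher in Atg7 cKO on all arrays, while in the double knockout Nqo1 lay below wild type and Akr1b7 stayed above it. Of 18 quinone and carbonyl reductases 9 rose and 4 fell, with 2 falls without either experiment, and 9 were lower in the double knockout than in Atg7 cKO by the test of the difference, against 3.21% of all genes. Txnrd1, whose promoter is shown above, gave 2.19, 2.06, 1.79 and 1.78 (1.96 ± 0.24; adjusted p = 0.00115), against -0.38 (adjusted p of the difference = 0.0111). In the thioredoxin and peroxiredoxin list 7 of 15 rose, with Txnrd2 (-0.94), the mitochondrial reductase, and Prdx2 (-0.42) lower, the latter a call lost without experiment 2 and without experiment 5. Ugdh gave 2.43, 2.62, 1.8 and 1.83 (2.17 ± 0.50; adjusted p = 0.00224), while 8 of 14 genes of the glucuronidation list fell, among them Ugt3a1 (-1.89), Ugt3a2 (-1.81) and Ugt2a3 (-1.54). Without experiment 5, 4 of the 14 fell. Of 11 pentose phosphate and NADPH genes 5 rose and 2 fell (median 0.07), against 3 rises and no fall without experiment 5. Pgd (1.97), G6pdx (1.36), Taldo1 (1.28) and Tkt (1.2) were among the rises, and the calls of G6pdx and Tkt were lost without experiment 5. Abcc4 (4.26, 3.94, 4.02 and 3.66; 3.97 ± 0.19; adjusted p = 0.000755) was the largest rise of 21 ABC transporters, of which 9 rose and 6 fell, the bile salt pump Abcb11 (-1.41), a call lost without experiment 5, among the latter. Without experiment 2, 6 rose, and without experiment 5, 4 fell.

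Other phase I and II genes fell more often than they rose. Of 29 P450 genes of families 1 and 2, 12 fell and 6 rose, from Cyp2c54 (-3.29) and Cyp2c37 (-3.07) to Cyp2a4. Of 11 carboxylesterases 7 fell (median -1.38), among them Ces1e (-2.33) and Ces1d (-1.87), and 2 rose, Ces2c (1.25) and Ces1g (1.12), the latter a call lost without experiment 2 (0.63). Ces3b gave -2.70 and -3.43 in experiment 2 and -4.45 on the exchanged array of experiment 5, and its other spot carried an outlier flag, so its called value of -3.07 comes from experiment 2 only. Of 11 sulfotransferases 4 fell and Sult1e1, the estrogen sulfotransferase, rose (2.04), a call lost without experiment 2. The median of this list was -0.99, but 0.00 without experiment 5, where 2 fell. In the P450 list of family 3 and others 8 of 23 fell and none rose, against 2 without experiment 5.

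Genes of nitrogen disposal and amino acid breakdown were lower. All 11 tested genes of the urea cycle and glutamine list fell (median -1.34). Cps1, which makes carbamoyl phosphate in the first step of the urea cycle, gave -2.0, -2.18, -2.0 and -2.31 (-2.12 ± 0.05; adjusted p = 0.00125), and Ass1, argininosuccinate synthase, -1.72, -1.65, -1.79 and -1.86 (-1.76 ± 0.10; adjusted p = 0.00112). Both had a narrow range over the 4 arrays. Of 19 genes of amino acid catabolism 14 fell and none rose, led by Oat, ornithine aminotransferase (-1.79, -1.99, -2.76 and -3.35; -2.47 ± 0.82; adjusted p = 0.00682), whose call was lost without experiment 5 (-1.89, adjusted p = 0.054), and Hal, histidine ammonia lyase (-1.76, -1.91, -2.35 and -2.82; -2.21 ± 0.53; adjusted p = 0.00191). In the methionine and one-carbon list 13 of 21 fell and 5 rose. Mat1a, the S-adenosylmethionine synthetase of adult liver, gave -1.55, -1.70, -2.55 and -2.86 (-2.16 ± 0.76; adjusted p = 0.004), and Mat2a, the form of other tissues, 1.38, 1.41, 1.5 and 1.47 (1.44 ± 0.06; adjusted p = 0.0014). These isozymes moved in opposite directions on each of the 4 arrays. Without experiment 5 the list had 9 falls and 2 rises. Of 14 genes of tryptophan and NAD metabolism 7 fell, among them Nnmt (-1.84) and Afmid (-1.74), and Nampt (0.96), which salvages nicotinamide, rose. The call of Nnmt was lost without experiment 5 (-1.45) and that of Nampt without either experiment.

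Amino acid carriers moved in both directions. Slc1a2, the glutamate carrier of perivenous hepatocytes, fell by 2.67 (adjusted p = 0.00239), and 8 of 16 carriers fell in all. Slc6a9, a glycine carrier, gave 2.24, 2.26, 2.03 and 1.97 (2.12 ± 0.18; adjusted p = 0.000887), and 6 of 16 rose, Slc1a4 (1.60) among them. Without experiment 5, 5 fell. Of 17 hepatocyte uptake carriers 9 fell and 1 rose. Slc10a1, the bile salt uptake carrier NTCP, gave -2.06, -1.97, -2.34 and -2.41 (-2.19 ± 0.26; adjusted p = 0.000834), and Slc22a7, an organic anion carrier, -2.16, -1.87, -2.52 and -2.22 (-2.19 ± 0.25; adjusted p = 0.00046). Both were at least 3-fold lower on every array.

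Transcripts of many plasma proteins were lower, though not those of all classes. Of 16 plasma carriers and major urinary proteins 13 fell (median -1.30). Alb, albumin, gave -0.66, -2.10, -0.36 and -2.51 (-1.41 ± 0.04; adjusted p = 0.0159), and its ratio differed far more between dye orders than between experiments. The call was lost without experiment 2 (adjusted p = 0.0814) and without experiment 5 (adjusted p = 0.108). Of 27 coagulation genes 17 fell and 5 rose. F7, coagulation factor VII, gave -1.23, -1.17, -1.76 and -1.5 (-1.42 ± 0.30; adjusted p = 0.00147), and Plat, tissue plasminogen activator, rose (1.83; adjusted p = 0.0131). The fibrinogen chains Fga (-1.15), Fgb (-1.04) and Fgg (-1.78) fell, and on the forward array of experiment 5 Fgb was at 0.01. Without experiment 5, 3 coagulation genes rose. Of 26 complement genes 10 fell, led by C8a (-1.85), whose call was lost without experiment 2 (-1.31), and 6 rose, among them C1qa (1.15), C1qb (1.60) and C1qc (1.57), which macrophages make. Without experiment 2, 6 complement genes fell. Of 24 apolipoprotein genes 11 fell, with Apoa2 at -1.8, and Lpl, lipoprotein lipase, rose (2.35, 2.03, 3.81 and 3.43; 2.90 ± 1.01; adjusted p = 0.00497). Without experiment 5, 7 of the 24 fell and 1 rose.

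Among serine protease inhibitors 8 of 19 fell and 5 rose, from Serpina1d (-2.56), a call lost without experiment 2, to Spink1. Slpi, the secretory leukocyte protease inhibitor, gave 2.70, 2.79, 3.60 and 3.45 (3.14 ± 0.55; adjusted p = 0.000915), more in experiment 5 than in experiment 2. Of 12 genes of selenoproteins and their synthesis 6 fell and none rose, though 1 rose without either experiment. Selenop, the selenium carrier of plasma, gave -1.85, -2.49, -1.55 and -2.64 (-2.13 ± 0.05; adjusted p = 0.000565), and Dio1, a deiodinase that activates thyroid hormone, -1.74, -1.72, -2.82 and -2.87 (-2.29 ± 0.79; adjusted p = 0.00298). In the haem and iron list 11 of 24 rose and 5 fell. Its extremes were Blvrb (1.96), biliverdin reductase B, and the hepcidin paralogue Hamp2 (-2.53), the latter a call lost without experiment 5 (-1.28), where 2 fell in all, against 3 without experiment 2. The wild-type level of Hamp2 was 10.32 in experiment 2 and 14.51 in experiment 5.

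Lists of hepatocyte transcription factors and of growth hormone and IGF signalling had medians of -0.51 and -0.52, with larger falls of single receptors. Of 27 hepatocyte transcription factors and nuclear receptors 14 fell and 1, Pparg, rose. Nr1i3, the xenobiotic receptor CAR, gave -0.78, -0.76, -1.82 and -1.65 (-1.25 ± 0.68; adjusted p = 0.0106), with no overlap between the experiments but a fall on every array, and Pparg, the lipogenic nuclear receptor, 1.31, 1.13, 1.14 and 0.97 (1.14 ± 0.12; adjusted p = 0.000898). Without experiment 5, 9 of the 27 fell. The motif CAAAGTCCA of the hepatocyte factor HNF4 was searched on both strands. It was in 7 of 365 windows of genes at least 2-fold lower (1.92%) and in 0.525% of the windows of tested genes. Genes at least 4-fold lower had it in 0 of 52 windows. Hepatocyte markers had it in 0 of 12, the urea cycle list in 0 of 7 and amino acid catabolism in 2 of 18. These shares carry no test. Of 17 genes of growth hormone and IGF signalling 9 fell and 1, Igfbp7 (0.48), rose, the rise being lost without either experiment. Ghr, the growth hormone receptor, gave -1.65, -1.98, -2.27 and -2.58 (-2.12 ± 0.43; adjusted p = 0.00234), and Igf1, its secreted target, -1.40, -1.47, -1.76 and -2.06 (-1.67 ± 0.34; adjusted p = 0.00245). Lifr, the receptor of leukaemia inhibitory factor, gave -2.36, -2.33, -2.58 and -2.52 (-2.45 ± 0.14; adjusted p = 0.000157). These genes were lower on all arrays, Lifr with the narrowest range. In its list of IL6 and STAT3 genes 6 of 20 fell and 4 rose, with Lcn2, lipocalin 2, at 2.11, and without experiment 5 the counts were 3 and 1.

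Lipid genes moved in both directions. Of 25 genes of fatty acid oxidation 14 fell and none rose, against 4 without experiment 5. Of 21 peroxisomal genes 8 fell, and Pex11a (1.09), which divides peroxisomes, rose, as did Ehhadh (0.58), a bifunctional oxidation enzyme whose call was lost without experiment 2 (0.28, adjusted p = 0.0573). Without experiment 5, 1 peroxisomal gene fell. Cidec, a lipid droplet protein that fuses droplets, gave 2.70, 2.80, 2.70 and 2.85 (2.76 ± 0.02; adjusted p = 5.21e-05), with nearly the same value on each array, and Fabp4 (1.94) and Plin2 (1.13) rose also, in a list of 20 with 8 rises and 3 falls, the falls all lost without experiment 5 and 1 left without experiment 2. Scd2, a stearoyl-CoA desaturase, gave 2.78, 2.57, 3.45 and 3.46 (3.07 ± 0.55; adjusted p = 0.000891), and Fads3, a desaturase of sphingoid bases, 1.93, 1.72, 2.18 and 1.93 (1.94 ± 0.16; adjusted p = 0.00036). In the list of elongases and desaturases 4 of 17 rose and 6 fell, against 3 falls without experiment 2 and none without experiment 5. Of 13 bile acid genes 9 fell and 1 rose, against 6 falls and no rise without either experiment. Cyp8b1, the sterol 12-alpha-hydroxylase that makes cholate, gave -2.30, -1.85, -1.99 and -1.68 (-1.96 ± 0.17; adjusted p = 0.0016). Cyp7a1, the rate-limiting enzyme of bile acid synthesis, gave -1.93, -1.88, -2.19 and -2.28 (-2.07 ± 0.24; adjusted p = 0.0208), a call lost without experiment 2 (-2.24) and without experiment 5 (-1.91). Of 21 genes of cholesterol synthesis 4 fell and none rose, against 2 without experiment 2 and 1 without experiment 5.

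Respiratory chain genes were modestly lower and ribosomal genes modestly higher. Of 21 complex I genes 10 fell and 1 rose (median -0.30), with Ndufb10 at -0.82 and Ndufb9 at -0.78, and of 22 genes of complexes II to IV 11 fell, Sdha (-0.94) first, and 1, Cycs (0.45), rose, a call lost without experiment 2. Without experiment 5 the falls were 2 and 3, and the rise in complex I was lost without either experiment. Of 11 ATP synthase genes 4 fell, and none without experiment 5. Of 33 ribosomal proteins 13 rose (median 0.33), with Rps19 at 0.42, 0.62, 0.89 and 0.95 (0.72), against 23 without experiment 2 and 1 without experiment 5, where the call of Rps19 was lost. Of 17 chaperones of the endoplasmic reticulum 12 fell and none rose (median -0.42). Calr, calreticulin, gave -1.49, -1.03, -0.91 and -0.42 (-0.96 ± 0.42; adjusted p = 0.00583) and Hyou1, a co-chaperone of BiP, -0.93, -0.94, -0.74 and -0.83 (-0.86 ± 0.11; adjusted p = 0.00462), both lower on every array. Of 32 proteasome genes 2 rose and 2 fell (median -0.02), with 1 fall without experiment 2 and none without experiment 5, and of 19 cytosolic heat shock genes 2 rose, Hspa1a (1.85) and Hspa1b (0.70), calls lost without experiment 2. The median of the heat shock list was 0.16, and -0.15 without experiment 2.

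The brightest genes whose ratio stayed under 0.2 in size on every array were Oaz1, Aspg, Smdt1, Chchd1, Park7, Psmd11, Grpel1, Psmb4, Mrpl28 and Psmb3. None was called. Park7, a peroxide-responsive protein, gave 0.08, 0.01, 0.03 and -0.16 (adjusted p = 0.931), and Psmb4, a proteasome core subunit, -0.05, 0.09, 0.11 and 0.03 (adjusted p = 0.527).

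Genes of cell division rose together. Of 28 mitosis genes 27 rose (median 1.07, 0.75 in experiment 2 and 1.40 in experiment 5), and 24 did without experiment 5. The other, Bub1, had a called value of -0.28 from its brightest probe and 0.14 as the mean of its probes, and its call was lost without either experiment. Cdc20, whose promoter is shown above, gave 2.57, 2.20, 3.29 and 2.84 (2.73 ± 0.48; adjusted p = 0.000844), Ccnb2 gave 1.66, 1.53, 2.51 and 2.31 (2.0 ± 0.57; adjusted p = 0.00171), and Mki67, the proliferation antigen Ki-67, 1.72, 1.53, 2.48 and 2.51 (2.06 ± 0.61; adjusted p = 0.00272). All were higher in experiment 5 than in experiment 2, with no overlap. Of 28 replication genes 24 rose and none fell (median 0.87), though without experiment 5 1 fell. Mcm6, a subunit of the replicative helicase, gave 2.34, 2.48, 3.12 and 3.20 (2.78 ± 0.53; adjusted p = 0.0027). Of 19 G1 cyclins and cycle inhibitors 15 rose, among them Ccnd1, cyclin D1, with 2.42, 2.27, 1.46 and 1.53 (1.92 ± 0.60; adjusted p = 0.00279), here higher in experiment 2. Of 22 genes of DNA damage and p53 13 rose and 1 fell, the fall being lost without either experiment, and 8 rose without experiment 5. Phlda3, a p53 target that restrains Akt, gave 1.76, 1.73, 2.28 and 2.27 (2.01 ± 0.38; adjusted p = 0.00135). Of 23 death and survival genes 17 rose and none fell, led by Tnfrsf12a, the receptor of TWEAK, with 2.57, 2.56, 2.66 and 2.67 (2.62 ± 0.07; adjusted p = 0.000376) and a narrow range over the arrays.

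Genes of the cytoskeleton, of membrane repair and of the matrix rose more often than they fell. Of 29 actin and tubulin genes 21 rose and none fell (median 0.93). Stmn1, stathmin, which destabilises microtubules, gave 2.50, 2.34, 3.21 and 3.02 (2.77 ± 0.49; adjusted p = 0.000842), and the tubulin Tubb6, thymosin Tmsb4x and vimentin Vim were at 2.35, 2.18 and 1.76. Of 18 annexins and S100 proteins 13 rose and 2, S100a13 and S100a1, fell, the falls being lost without experiment 5. Anxa5, an annexin that binds phosphatidylserine, gave 2.51, 2.08, 2.48 and 2.04 (2.28 ± 0.03; adjusted p = 6.21e-05), and Anxa2 2.09, 2.03, 2.25 and 2.32 (2.17 ± 0.16; adjusted p = 0.000217). Of 17 YAP and TEAD targets 14 rose, Birc5 (2.68), Spp1 (2.55) and Ccn2 (1.39) among them. Yap1 itself fell (-0.19), a call lost without either experiment. Birc5 is also in the list of proliferating cells below, and Spp1 in those of recruited macrophages and cholangiocytes. Of 19 integrins and adhesion genes 14 rose and none fell, led by the tetraspanin Cd9 (3.25), which is also in the list of recruited macrophages. Of 22 keratins and junction genes 10 rose and 1, Gjb1 (-0.66), the main gap junction protein of hepatocytes, fell. Without experiment 5, 6 rose. Krt8 gave 1.5, 1.54, 2.03 and 1.70 (1.69 ± 0.24; adjusted p = 0.0015) and its partner in hepatocyte filaments Krt18 1.75, 1.21, 2.24 and 1.60 (1.70 ± 0.31; adjusted p = 0.00177). Of 23 collagens and matrix genes 14 rose and 2 fell, against 9 and 1 without experiment 5 and 11 and 1 without experiment 2. Col1a1 gave 2.14, 2.11, 2.25 and 2.35 (2.21 ± 0.13; adjusted p = 0.000108) and Col3a1 1.74, 1.58, 1.81 and 1.56 (1.67 ± 0.02; adjusted p = 0.000227). Fn1, the fibronectin that hepatocytes secrete, was at -0.63.

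Interferon-induced and antigen-presenting genes rose beside the shared exposure to pIpC. Of 29 genes of the type I interferon response 26 rose and none fell (median 0.99). Oasl1, an inhibitor of Irf7 translation, gave 2.61, 2.42, 2.41 and 2.02 (2.36 ± 0.21; adjusted p = 0.000882), Isg15 gave 2.10, 2.22, 1.24 and 1.60 (1.79 ± 0.52; adjusted p = 0.00437), and Ifit1 2.38, 2.47, 1.04 and 1.01 (1.72 ± 0.99; adjusted p = 0.0216), the last 2 higher in experiment 2. The call of Ifit1 was lost without experiment 2 (1.03, adjusted p = 0.114). Of 15 genes of MHC class I and antigen processing 12 rose and of 8 class II genes 7 rose (median 1.34), with H2-Ab1 at 1.32, 1.23, 2.37 and 2.09 (1.75 ± 0.68; adjusted p = 0.00417). Of 13 interferon-gamma induced GTPases 7 rose (median 0.52, 2.33 in the double knockout), and 10 were higher in the double knockout than in Atg7 cKO by the test of the difference, against 1.75% of all genes. Of 21 TNF and NF-kappaB genes 14 rose and none fell, against 7 without experiment 5, among them the adhesion molecules Vcam1 (1.46) and Icam1 (1.34), the latter a call lost without experiment 5. Of 21 chemokines 13 rose and 1 fell. Ccl2, which draws monocytes, gave 2.48, 2.12, 2.61 and 2.20 (2.35 ± 0.07; adjusted p = 0.000227), and Cxcl12, made by liver endothelium and stroma, -1.27, -1.38, -1.94 and -2.06 (-1.66 ± 0.48; adjusted p = 0.00272). Of 15 genes of endotoxin sensing 8 rose, against 2 without experiment 5, with Cd14 at 2.13, a call lost without either experiment.

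Markers of macrophages moved with these groups, and those of hepatocytes moved the other way. In whole liver RNA a change in the number of cells of a type and a change of RNA per cell cannot be told apart. Of 11 Kupffer cell markers 10 rose and none fell (median 1.33), and their summed level, as linear signal over the genes tested, was 6620 in wild type and 24000 in Atg7 cKO in experiment 2 and 8060 and 33600 in experiment 5. Adgre1, the macrophage antigen F4/80, was at 1.93 and Cd5l at 2.51. Of 14 markers of recruited monocytes and macrophages 13 rose (median 1.21), with sums of 1950 against 8570 in experiment 2 and 2270 against 13400 in experiment 5. Trem2, a lipid receptor of macrophages, gave 2.23, 2.14, 2.71 and 2.65 (2.43 ± 0.35; adjusted p = 0.000553). Of 12 hepatocyte markers 10 fell (median -1.16), and the sums were 118000 and 122000 in wild type against 43400 and 45900 in Atg7 cKO. All 12 stayed well above background on the 4 arrays in both genotypes. The part of these cell types in the results of the other lists was not tested.

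Markers of proliferating cells rose as well, 5 of 5 (median 2.06), with sums of 658 against 2700 in experiment 2 and 734 against 5330 in experiment 5. Of these, 4 are also in the mitosis list and Stmn1 in the cytoskeleton list. Of 4 tested adipocyte markers, with 3 others on the array below the filter, 2, Cidec and Fabp4, rose (median 1.11, 0.72 in experiment 2 and 2.14 in experiment 5), with sums of 1000 against 2870 and 918 against 4360. Without experiment 2 all 4 rose, and without experiment 5 2 rose and 1 fell. The part of adipocytes in the values of lipid genes was not tested. Of 9 neutrophil markers 2 rose, S100a9 (1.34) and S100a8 (0.65), and 5 of the 9 were above background on no wild-type array. Both calls were lost without either experiment. The summed neutrophil level was 694 against 963 in experiment 2 and 862 against 1680 in experiment 5. Of 14 T and NK cell markers 5 rose, none of them without experiment 5 and 3 without experiment 2, with sums of 976 against 1040 and 971 against 1180, and of 6 tested B cell markers 1 rose, a call lost without either experiment. Of 17 sinusoidal endothelial markers 2 rose and 1 fell (median -0.04), against 1 rise without either experiment and no fall without experiment 5. Their sums were 6510 against 6020 and 6320 against 5190, while Lyve1, a hyaluronan receptor shared with macrophages, rose (1.19). Of 14 stellate and fibroblast markers 6 rose and 1 fell, the fall being lost without experiment 5, with sums of 7260 against 9340 and 8480 against 9710. Of 7 cholangiocyte markers 2 rose (median 0.12), Spp1 (2.55), which other cells also make, and Sox9 (0.58), a call lost without experiment 5. The sums of this list, 952 against 3750 and 1090 against 3660, include Spp1, and the part of Spp1 in them was not separated. Of 4 tested pancreatic acinar markers 1 fell and 2, dim in both genotypes, rose, with 1 rise left without experiment 2 and none without experiment 5 and sums of 654 against 472 and 530 against 386, and of 5 skeletal muscle markers none was called.

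Lysosomal genes rose more often than they fell, and autophagy genes moved in both directions. Of 28 genes of lysosomal hydrolases and membrane proteins 18 rose and 1, Lamp2 (-0.64), fell, a call lost without experiment 5. Hexa, a hexosaminidase subunit, gave 1.23, 1.23, 1.37 and 1.45 (1.32 ± 0.13; adjusted p = 0.000428), and Cd63, a lysosomal tetraspanin, 1.54, 1.56, 2.26 and 2.22 (1.90 ± 0.49; adjusted p = 0.00147). The list also holds Cd68 (1.27) and Ctss, which macrophages express strongly and whose rise on 3 arrays (2.51, 1.96 and 3.37) was called from experiment 2 alone, since 1 spot of experiment 5 carried an outlier flag. Of 17 genes of the vacuolar ATPase and the TFEB axis 9 rose, with Rragd, a GTPase that links amino acids to mTORC1, at 1.56, 1.63, 2.31 and 2.34 (1.96 ± 0.51; adjusted p = 0.00146). Of 13 conjugation genes 5 fell and 2 rose. Atg3, the E2-like partner of Atg7, gave -0.71, -0.70, -1.12 and -1.27 (-0.95 ± 0.35; adjusted p = 0.00463), and Map1lc3a, an LC3 form, 0.57, 0.87, 0.43 and 0.86 (0.68 ± 0.05; adjusted p = 0.00298). Atg12, the ubiquitin-like partner of Atg5, was at 0.60 (adjusted p = 0.00234). Without experiment 5, 3 conjugation genes fell. Of 12 receptors 3 rose, and Sqstm1 alone of them kept its call without either experiment.

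**Figure D2:**
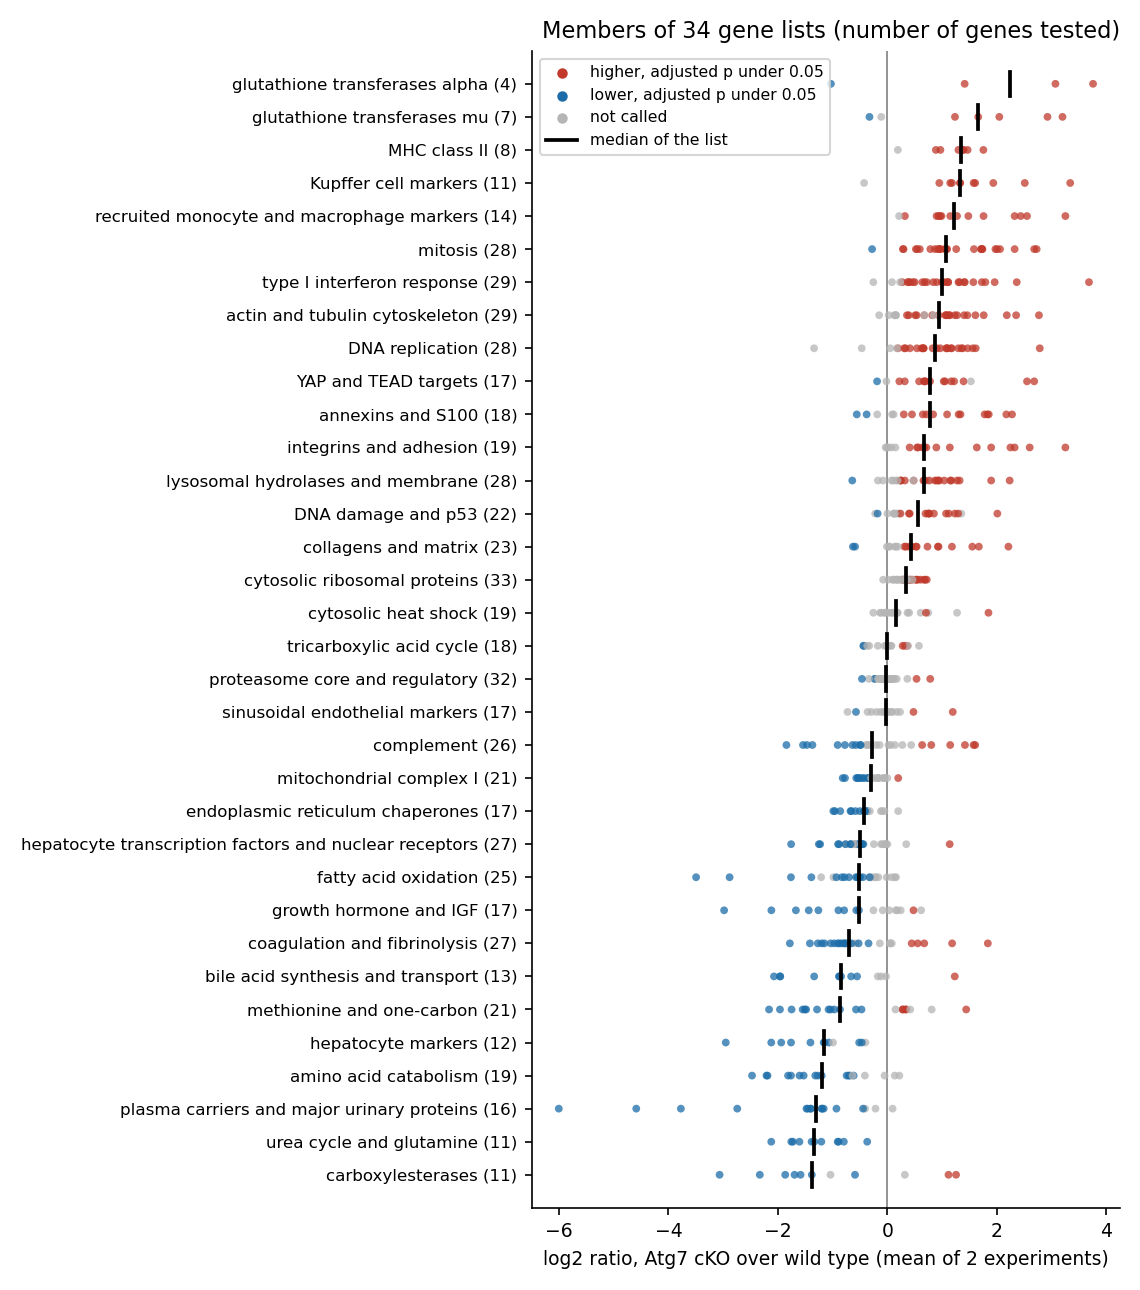
Log2 ratio of Atg7 cKO over wild type, mean of 2 experiments (x axis), for each tested member of 34 gene lists (y axis, number tested in brackets), red where higher and blue where lower at an adjusted p under 0.05. Black bars are list medians, which run from 2.24 for the alpha class glutathione transferases to -1.38 for the carboxylesterases.

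Some genes were above background in one genotype only. On all 4 Atg7 cKO channels and on none of the 4 wild-type channels, 479 genes were well above background, while the reverse held for 17 genes. These genes were picked by the signals being compared, so their values are a description and carry no test. The share of all spots above background was also higher in the Atg7 cKO channels, as given above, and its part in these counts was not tested. For such genes the fold is a bound, the Atg7 cKO mean over the lowest level measured above background. The examples are the 5 with the largest bounds among the named genes called higher, chosen with their values known. Styk1, a kinase-like membrane protein, gave 1.79, 1.66, 2.10 and 1.96 and was at least 3.62-fold higher (mean levels of 5.95 in wild type and 7.83 in Atg7 cKO on the log2 scale). Myot, myotilin, a protein of the sarcomere, gave 2.30, 1.99, 1.61 and 1.66 and was at least 3.59-fold higher (5.87 and 7.76). Ncapg, a condensin subunit, gave 1.1, 1.18, 1.88 and 1.99 and was at least 2.9-fold higher (5.98 and 7.51). Mmp13, a collagenase, gave 1.02, 0.87, 1.97 and 1.95 and was at least 2.69-fold higher (5.92 and 7.37). Pbk, a mitotic kinase, was at least 2.7-fold higher (5.97 and 7.41). Myot had higher ratios on both arrays of experiment 2, and the other genes on both arrays of experiment 5.

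The experiments differed for a minority of genes. Of 16374 genes compared, 408 were up and 208 down at least 2-fold on all 4 arrays. Rises of that size on both arrays of an experiment numbered 487 in experiment 2 and 744 in experiment 5, and falls 304 and 427. Rises of at least 2-fold on both arrays of one experiment with less than 1.5-fold on both of the other numbered 13 in experiment 2 and 42 in experiment 5, and falls 33 and 56. With 1 experiment of each kind these counts carry no test. Hsd3b4, a steroid dehydrogenase, gave -4.04, -4.16, -0.15 and -0.08, and Elovl3, an elongase, -3.63, -3.95, -0.34 and -0.33, both at least 2-fold lower in experiment 2 only. Wild-type levels of Hsd3b4 and Elovl3 were 11.38 and 12.31 in experiment 2 but 6.13 and 6.13 in experiment 5. The latter are close to background, so a fall in experiment 5 could hardly be measured. Cyp2b9 gave 0.69, 0.67, -3.33 and -3.97 and Cyp2b13 0.55, 0.58, -3.23 and -3.30, steroid hydroxylases that were lower in experiment 5 only. Mt2, a metallothionein, gave 3.43, 3.15, 0.85 and 0.32, and Gstp1, the pi class glutathione transferase, 0.03, -1.21, 3.31 and 1.91, and the latter also differed between dye orders. None of these 6 genes was called.

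**Figure D3:**
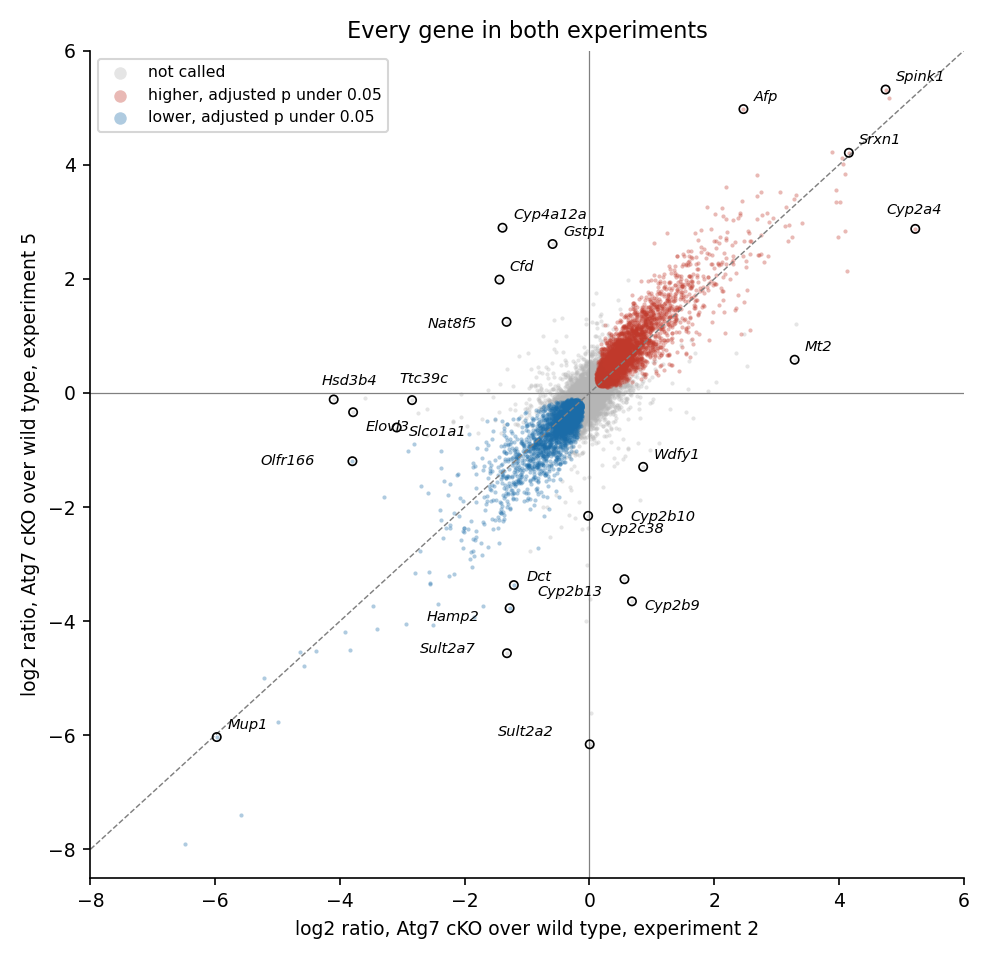
Log2 ratio of Atg7 cKO over wild type in experiment 2 (x axis) and experiment 5 (y axis), each the mean of a dye swap, for the 16374 genes measured in both. The dashed line marks equal ratios. Ratios of Sult2a2, Cyp2b9 and Cyp2b13 were low in experiment 5 only and those of Hsd3b4 and Elovl3 in experiment 2 only. In the other experiment the wild-type levels of Sult2a2 (5.82), Hsd3b4 (6.13) and Elovl3 (6.13) were close to background, so a fall could hardly be measured there.

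Genes that differed between the sets of experiments in wild type differed less in Atg7 cKO. The genes were chosen from the wild-type channels of experiments 1, 3, 4 and 6, on other arrays than those of experiments 2 and 5. The 50 genes highest in experiments 4 to 6 and the 50 highest in experiments 1 to 3 were taken. For the first 50 the level in experiment 5 minus that in experiment 2 had a median of 1.90 in wild type and 0.12 in Atg7 cKO, and was smaller in size in Atg7 cKO for 46 of 50. Of them, 36 had a ratio below 0 in experiment 5 and 32 a ratio above 0 in experiment 2, with median ratios of -1.2 and 0.37. For the other 50 the median difference was -1.76 in wild type and -0.57 in Atg7 cKO, smaller for 47 of 50, and 46 had a ratio below 0 in experiment 2 and 18 a ratio above 0 in experiment 5, with median ratios of -1.5 and -0.26. The same differences between experiments 4 and 1 in Nrf2 knockout were 1.87 and -1.43, and between experiments 6 and 3 in the double knockout 0.72 and -0.41. Sult2a2, a sulfotransferase, stood at 5.82 and 12.80 in wild type of experiments 2 and 5 and at 5.82 and 6.65 in Atg7 cKO. With 1 experiment per set there is no test, and wild-type RNA may have been shared between experiments, which the labels do not say. The wild-type differences used for the choice had medians similar in size to those between experiments 5 and 2. If RNA was shared, the wild-type differences would be large by selection, while Atg7 cKO levels played no part in the choice. The counts of 46 and 47 would then in part follow from the choice, and that part was not tested. Xist was at 5.8 and 11.21 in wild type and at 5.75 and 10.87 in Atg7 cKO, so the pairing of experiments by sex-linked transcripts held in both genotypes.

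**Figure D4:**
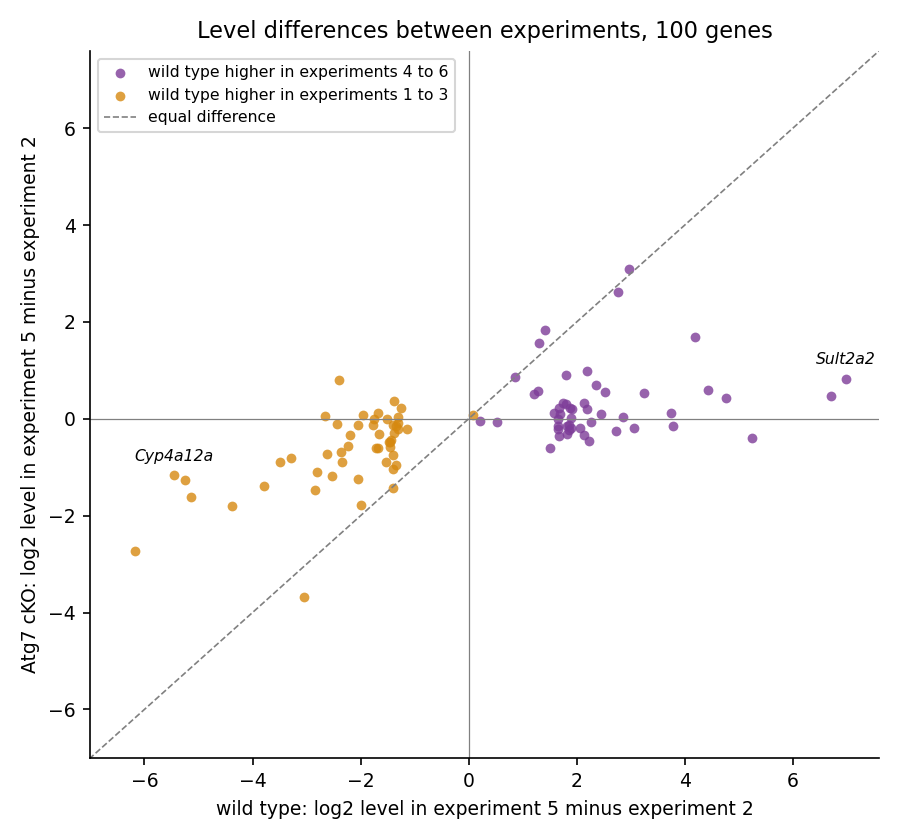
Difference in log2 level between experiments 5 and 2 in wild type (x axis) and in Atg7 cKO (y axis) for 50 genes whose wild-type level was higher in experiments 4 to 6 and 50 whose level was higher in experiments 1 to 3. The dashed line marks equal differences, and most points lie nearer to 0 on the y axis than on the x axis, by the counts of 46 and 47 of 50. Genes were chosen by wild-type levels only, so these counts may in part follow from the choice.

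The double knockout was compared with Atg7 cKO to see which of these changes differ without Nrf2. The contrast of the double knockout with Atg7 cKO, made through wild type, called 812 of 16381 genes (4.96%), 286 higher (1.75%) and 526 lower (3.21%) in the double knockout. The count rests on few experiments and on the fit. It ranged from 80 without experiment 1 or 4 to 384 without experiment 5 and was 206 with the slide as a block and 210 from the deposited value table, but 1408 with the set of experiments (1 to 3 against 4 to 6) as a block, 2442 from single arrays with a dye effect and 2426 on the direct arrays, taken from the value table in place of the contrast. Of the 651 genes at least 2-fold higher in Atg7 cKO, 160 were lower in the double knockout, 24 higher and 467 not called. Of the 383 at least 2-fold lower, 29 were higher, 5 lower and 349 not called. Since the genes were chosen by the Atg7 cKO ratio, which enters the contrast, this split is a description.

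Srxn1 gave -0.31 and -0.36 in the double knockout experiments 3 and 6, against 4.16 and 4.21 in Atg7 cKO experiments 2 and 5 (adjusted p of the difference = 0.000282), and on direct arrays of the double knockout over Atg7 cKO, in experiments 7 and 8, -4.72 and -4.67. Maoa gave 0.29 and 0.15 in the double knockout (adjusted p of the difference = 0.00031) and -4.35 and -4.25 on the direct arrays. Both had ratios near 0 in the double knockout. Cidec gave 0.18 and 0.23 (adjusted p = 0.000564) and Fads3 0.37 and 0.19 (adjusted p = 0.00682), lipid genes with the same pattern. Spink1 gave 2.34 and 1.94 (adjusted p = 0.00874) and Cbr3 had a mean of 1.61 (adjusted p = 0.00264), both lower than in Atg7 cKO yet above 0 in both double knockout experiments. Cyp2a5 gave -2.66 and -3.35 (adjusted p = 0.00741) and Ces1g -3.36 and -3.38 (adjusted p = 0.0111), below 0 in both.

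Other genes were higher in the double knockout. Fgg gave 1.02 and 0.73 (adjusted p = 0.0113) and 2.96 and 2.02 on the direct arrays, Fgb 1.15 and 0.90 (adjusted p = 0.0111) and Fga 0.87 and 0.70 (adjusted p = 0.00909), so the mean ratios of the fibrinogen chains were below 0 in Atg7 cKO and above 0 in the double knockout. Tgtp1, an interferon-gamma induced GTPase, gave 3.97 and 3.86 against 1.43 in Atg7 cKO (adjusted p = 0.00758), and Hpx, hemopexin, 3.41 and 2.79 against 0.96 (adjusted p = 0.019). The Atg7 cKO call of Hpx was lost without either experiment. Among whole lists, 9 of 20 IL6 and STAT3 genes and 6 of 21 chemokines were higher in the double knockout than in Atg7 cKO and none lower, while 8 of 15 thioredoxin and peroxiredoxin genes and 7 of 14 of the glucuronidation list were lower and none higher. In the haem and iron list 8 of 24 were lower and 5 higher. For mitosis the median was 0.62 against 1.07, for Kupffer cell markers 1.56 against 1.33, and for the urea cycle list -1.23 against -1.34, with 0 of 28, 2 of 11 and 0 of 11 members called different, at a background of 4.96%.

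**Figure D5:**
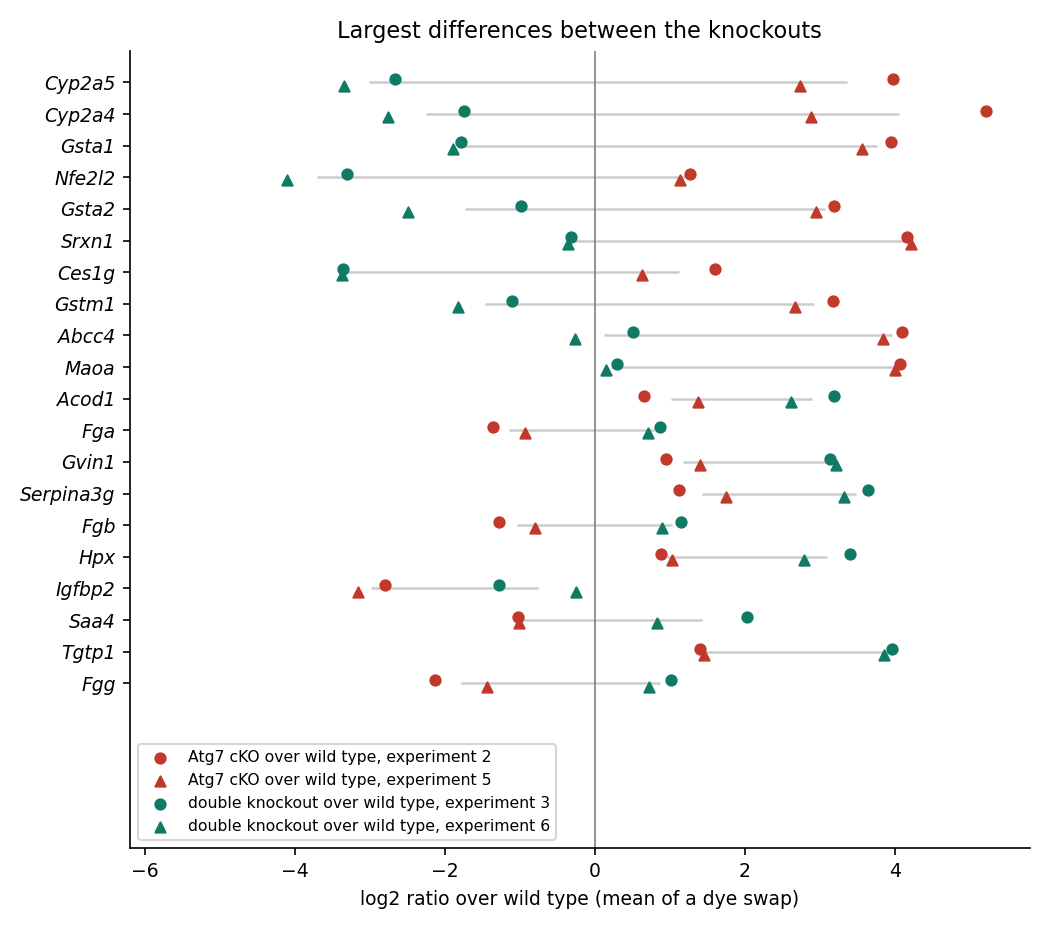
Log2 ratio over wild type (x axis, mean of a dye swap, grey lines joining the means) in Atg7 cKO experiments 2 and 5 and double knockout experiments 3 and 6 for the 20 genes with the largest called differences between the knockouts (y axis). In the upper rows the double knockout values lie left of those of Atg7 cKO, as for Cyp2a5, and in the lower rows right of them, as for Fgg.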

How the data were processed

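The 4 arrays were compared by groups taken from the sample titles and channel labels. RNA was extracted with TRIzol and RNeasy columns and 500 ng was amplified, per the labels' protocols. The deposited scanner files hold spot mean and background intensity values and processed signal intensity values from Agilent Feature Extraction 9.5.1.1, per the file headers, with log10 ratios of Cy5 over Cy3. The deposited value table holds log10 ratios that differ from the scanner log10 ratios by at most 0.005 on these arrays. Probe positions are on mm9, per the file headers, which differs from the promoter build GRCm38.p6.

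Mean signals of the 12 arrays of experiments 1 to 6 were corrected with normexp (offset 50, outlier spots left out) and loess in limma 3.58.1 (R 4.3.3, data.table version 1.17.8), which gave log2 ratios from the deposited intensity values. Ratios were turned to knockout over wild type, dye swaps were averaged to 1 value per experiment, and 3 group means were fitted over the 6 experiments with Benjamini-Hochberg adjustment. A probe entered the fit when 4 or more of the 24 channels carried the scanner's flag for signal well above background, and the brightest kept probe stood for a gene. Of 41174 probes, 24844 were named through a RefSeq accession, 6045 by symbol, 1810 by synonym and 8475 by the file's own name. For 8 genes 1 experiment was missing. Levels are log2 channel signals after quantile normalisation of average intensity. Figures and lists used Python 3.11.15, pandas 2.3.3 and matplotlib 3.10.9. The fit was tested on simulated data. A few results are not reported here.

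Members and lists were chosen with earlier results of these data known. Genes were named as the 15 largest rises and falls with the same direction and signal above background on all 4 arrays, up to 4 called members per list and those called in the other direction, the 10 largest differences each way between experiments, the 10 brightest genes within 0.2 of equality, and the 10 largest called differences each way between the knockouts. Alb, Ifit1, Ccnb2, Fga, Fgb, C1qa, Cycs, Atg12, Sult2a2 and genes measured in one genotype only were named after their values were seen. Alternatives were the processed signals, the deposited value table, no filter or a stricter one, slide or set as a block, single arrays with a dye effect, the mean over probes, the comparison's own experiments alone, and each experiment left out. The labels share no experiment number between the comparisons, so the only pairing of experiments tried was the block on sets told apart by sex-linked transcripts.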

Additional observations from a re-analysis of the deposited data

Results flagged for a closer look

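The effect of Atg7 loss differed with the Nrf2 genotype by an interaction term (the double knockout ratio minus those of Atg7 cKO and of Nrf2 knockout) for 118 of 16380 genes at a limma adjusted p under 0.05 (0.72%), 21 of them higher and 97 lower than the sum of the single knockouts. The 3 genes past 2-fold on all 4 arrays with opposite directions in experiments 2 and 5 were lower in experiment 2 and higher in experiment 5, and the difference was not tested, with 1 experiment a side. Cyp4a12a, a fatty acid hydroxylase, gave -1.43, -1.35, 2.93 and 2.87, with wild-type levels of 12.77 in experiment 2 and 7.32 in experiment 5 and Atg7 cKO levels of 11.38 and 10.22. Cfd, the complement protease adipsin, gave -1.49, -1.39, 1.99 and 1.98, with wild-type levels of 7.12 and 6.83 and Atg7 cKO levels of 5.68 and 8.82. Nat8f5, an acetyltransferase family member, gave -1.35, -1.31, 1.29 and 1.2, with wild-type levels of 10.69 and 6.32 and Atg7 cKO levels of 9.36 and 7.56. None of these 3 genes was called over both experiments by limma.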

How the results depend on the processing

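The count of 6498 changed genes was 3396 from experiments 2 and 5 alone and ranged from 3170 to 5875 when each experiment was left out, the lowest without experiment 5. It stayed within 1.5 times the main count under the other alternatives, from 5928 with the slide as a block to 7738 with the set as a block. The count of 1034 genes at least 2-fold changed was 2905 from the processed signals and 2898 from the deposited value table, which carry no offset, and ranged from 781 to 1253 with an experiment left out. The 812 genes that differed between the knockouts fell to 206 with the slide as a block, 210 from the value table and 211 from the processed signals, and rose to 1408 with the set as a block and 2442 with single arrays and a dye effect. The direct arrays in place of that contrast, read from the value table, gave 2426, so contrast and signal changed together. Leaving out an experiment gave 80 to 384. Those causes were not tested. Of 494 named genes, 136 lost their call without experiment 5, 83 without experiment 2, 93 from experiments 2 and 5 alone, 55 without experiment 1 or 4, 26 without experiment 3 or 6, 35 with the slide as a block or with no filter and 29 from the processed signals. Cfd, not called over both experiments, had a called value of -1.44 without experiment 5 (limma adjusted p = 0.0196) and of 1.99 without experiment 2 (limma adjusted p = 0.00644), and Bub1 turned to 0.14 as the mean of its probes (limma adjusted p = 0.231). No experiment number is shared between the comparisons, and the set block is the pairing that was run. The 2 experiments limit the precision of every value, and signals near background have ratios drawn towards 0.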
